A study of Mus musculus with 12 samples.

Results

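Interferon-stimulated genes are the genes that a cell switches on when an interferon binds its receptor. The 39 genes described here were taken by gene name from a given list of mouse interferon-stimulated genes. That list was chosen with earlier results of these data known. All 39 were found among the 55416 genes listed for the intestine and for the liver. RNA-seq of duodenum (labelled intestine) and liver was compared between mice treated with corticosterone (CORT), the main glucocorticoid of rodents, and vehicle-treated mice (Veh). Each tissue had 3 CORT and 3 Veh libraries, 12 in all, numbered here as in the sample labels. All mice were male C57BL6/J of 8 weeks at the start. CORT at 40 mg/kg, or vehicle (DMSO and Tween-80 in sterile water), was given daily under the skin over 8 weeks, and no genotype differed between the groups. The libraries were made from frozen whole tissue, so every value is a mean over all cell types in the piece. The labels call the replicates biological. They do not say whether a duodenum and a liver with the same number came from the same mouse.

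Type I interferons (alpha and beta) and type III interferons (lambda) act through the kinases JAK1 and TYK2 on STAT proteins, and STAT2 joins IRF9 in the complex ISGF3. ISGF3 binds a DNA element called the ISRE in front of its target genes. Interferon gamma acts on another element, the GAS. The products of these genes sense viral nucleic acids, block translation or entry of viruses, or coat the vacuoles of intracellular pathogens. The intestinal epithelium is known to keep part of this programme on without infection, and glucocorticoids are known to dampen inflammatory gene expression.

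The promoter sequences show the element that many of these genes share. RefSeq promoter windows (GRCm38.p6, from 250 bases before to 50 bases after the annotated start) were held for 31 of the 39 genes and not for Oas2, Usp18, Ifi27, Dhx58, Parp9, Parp14, Zbp1 and Iigp1. The core of the ISRE was searched as a pair of GAAA boxes with 2 bases of any kind (NN) between them, on both strands, so that a pair of TTTC boxes also counts. The stretches below belong to genes whose level was lower in CORT livers and whose window holds the core before the start. Each reads 5′ to 3′ along the gene's own strand, with the core in capitals.
Ifit1: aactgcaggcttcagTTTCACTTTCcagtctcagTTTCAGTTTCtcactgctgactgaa
Ifit3: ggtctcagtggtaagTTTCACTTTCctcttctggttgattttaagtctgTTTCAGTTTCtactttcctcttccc
Isg15: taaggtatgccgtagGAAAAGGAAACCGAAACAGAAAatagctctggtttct
Igtp: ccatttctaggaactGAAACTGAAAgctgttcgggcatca
Irgm2: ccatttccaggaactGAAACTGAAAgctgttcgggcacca

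The Ifit1 stretch is chr19:34640770-34640828 on the plus strand, positions -119 to -61 counted from the start. The Ifit3 stretch is chr19:34583358-34583431 on the plus strand, positions -171 to -98, and its paralogue Ifit3b carries the same 74 bases at chr19:34607754-34607827. The Isg15 stretch is chr4:156200860-156200911 on the minus strand, positions -93 to -42, and its capitals cover 3 overlapping matches. The Igtp stretch is chr11:58199507-58199546 and the Irgm2 stretch chr11:58214898-58214937, both on the plus strand, at positions -49 to -10 and -79 to -40. These are the same in 38 of 40 bases. Among the 31 genes with a window, 19 (61.3%) held the ISRE core, against 3.99% of all 27025 genes with a window. The share was 62.5% (5 of 8) among the genes called lower in the liver and 60.9% (14 of 23) among the others. The GAS core, TTCNNNGAA, was found in 9 of the 31 genes (29%) against 9.55% of all genes with a window, and in 1 gene it overlapped an ISRE core. The core of the glucocorticoid receptor element (GNACA and TGTNC with 3 bases of any kind between them, the same on both strands) was found in 0 of the 31 and in 0.537% of all genes with a window. A match of letters is not a bound site, and these windows are short.

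Values are in TPM, the unit in which RNA-seq gives relative transcript abundance, scaled to transcript length and to the library, so that levels of different genes can be set side by side within a library. Genes that averaged 1 TPM or more in the CORT or the Veh group of a tissue were tested with limma on log2(TPM + 1). A gene is called higher or lower when its Benjamini-Hochberg adjusted p over all tested genes was 0.05 or less and its fold change exceeded 1.5. The log2(TPM + 1) scale understates changes of low genes. With 3 libraries against 3, an exact two-sided permutation test of a single gene cannot give a p below 0.1, so no such test is given. Errors of log2 fold changes are standard errors (SE) from limma.

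In whole-library checks, Fkbp5, a gene induced through the glucocorticoid receptor, rose in every CORT library of both tissues, by 4.30 (intestine) and 4.23 (liver) on the log2 scale. Intestine Veh2 and Veh3 stood apart: 24 genes typical of pancreatic acinar cells made up 4.54% and 3.91% of their TPM, against 0.623% to 0.708% in the other 4 intestine libraries. Without Zg16, which intestinal goblet cells also express, these shares were 4.11% and 3.28% against 0.0534% to 0.0769%. Hepatocyte markers summed to between 113437 and 139648 TPM in the livers and to at most 441 TPM in the intestines. Enterocyte markers summed to at least 27086 TPM in each intestine, so both tissue labels matched their markers. In the livers the enterocyte markers summed to 187 to 297 TPM in Veh and 645 to 3984 TPM in CORT, with Apoa4 the highest. Of these 10 markers 3 were tested in the liver, and 1 was called higher in CORT.

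In vehicle-treated mice the genes were, for the most part, at higher TPM in the intestine than in the liver. This compares levels in separate tables and carries no test. All 3 intestine Veh libraries were above all 3 liver Veh libraries for 29 of the 39 genes, below them for 2 genes, and overlapped them for 8. The 3 marker genes of the group belonged to the 29. Isg15, a ubiquitin-like modifier that is attached to other proteins, had a mean of 115 TPM in Veh intestine and 16.1 TPM in Veh liver. Ifit1, which binds viral RNA that lacks host cap methylation, was at 21.6 and 2.24 TPM, and Oasl2 of the oligoadenylate synthetase (OAS) family at 87.0 and 1.67 TPM. Oas3 was at 16.9 TPM in Veh intestine and 0.143 TPM in Veh liver. The 2 genes in the other order were Ifitm3, which blocks virus entry at endosomes, and the immunity-related GTPase Iigp1. Ifitm3 was the highest of the 39 in both tissues, with 156 TPM in Veh intestine and 879 TPM in Veh liver. Iigp1 ranked 34th in Veh intestine (3.81 TPM) and second in Veh liver (82.6 TPM).

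In the liver, 9 of the 39 genes (23.1%) were called lower in CORT-treated mice and 0 were called higher. Of all 11699 genes tested in the liver, 2.01% were called lower and 4.91% were called higher. The 9 genes came from 6 role groups. Ifit1 and Ifit3 belonged to the IFIT proteins, Isg15 to ISG15 and its protease, and Oasl1 to the OAS family. Irf7 belonged to the signalling proteins and transcription factors, and Xaf1 to the other interferon-induced proteins. Igtp, Irgm2 and Iigp1 belonged to the interferon-inducible GTPases. The mean TPM of the 9 genes in CORT livers was between 0.264 and 0.517 of that in Veh livers. At an unadjusted p under 0.05, 17 of the 39 genes were lower and 0 higher, against 9.06% and 16.9% of all tested liver genes. Ifit1, Ifit3b and Samd9l, which are among the 17, averaged 1 TPM or more in Veh livers only, so they could only be lower. In whole tissue, fewer cells of a type that carries these transcripts and less transcript per cell cannot be told apart.

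The filter on low values bears on these counts. In the liver 28 of the 39 genes averaged 1 TPM or more in both groups, and 8 of these were called. Another 6 (Ifit1, Ifit3b, Rsad2, Gbp2, Gbp7 and Samd9l) passed only through the Veh group, so they could differ in 1 direction alone, and Ifit1 was the called one. Without any filter, when 23316 genes were tested, 2 of the 9 calls remained (Ifit3 and Xaf1). The remaining 5 (Ifit2, Oas1g, Oas2, Oas3 and Ifi44) were under 1 TPM in both groups and were not tested. Over all 39 genes, filter or not, every CORT library was lower than every Veh library for 19 (48.7%), against 11.6% of tested genes. Every CORT library was higher for 1 (Dtx3l), against 20.6% of tested genes. The median log2 fold change was -0.54 over the 34 tested genes and 0.08 over all tested liver genes. Those 34 include the 6 that passed only through the Veh group. Without the filter the median was -0.46 over all 39 genes and 0.0095 over all 23316 genes tested.

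**Figure D1:**
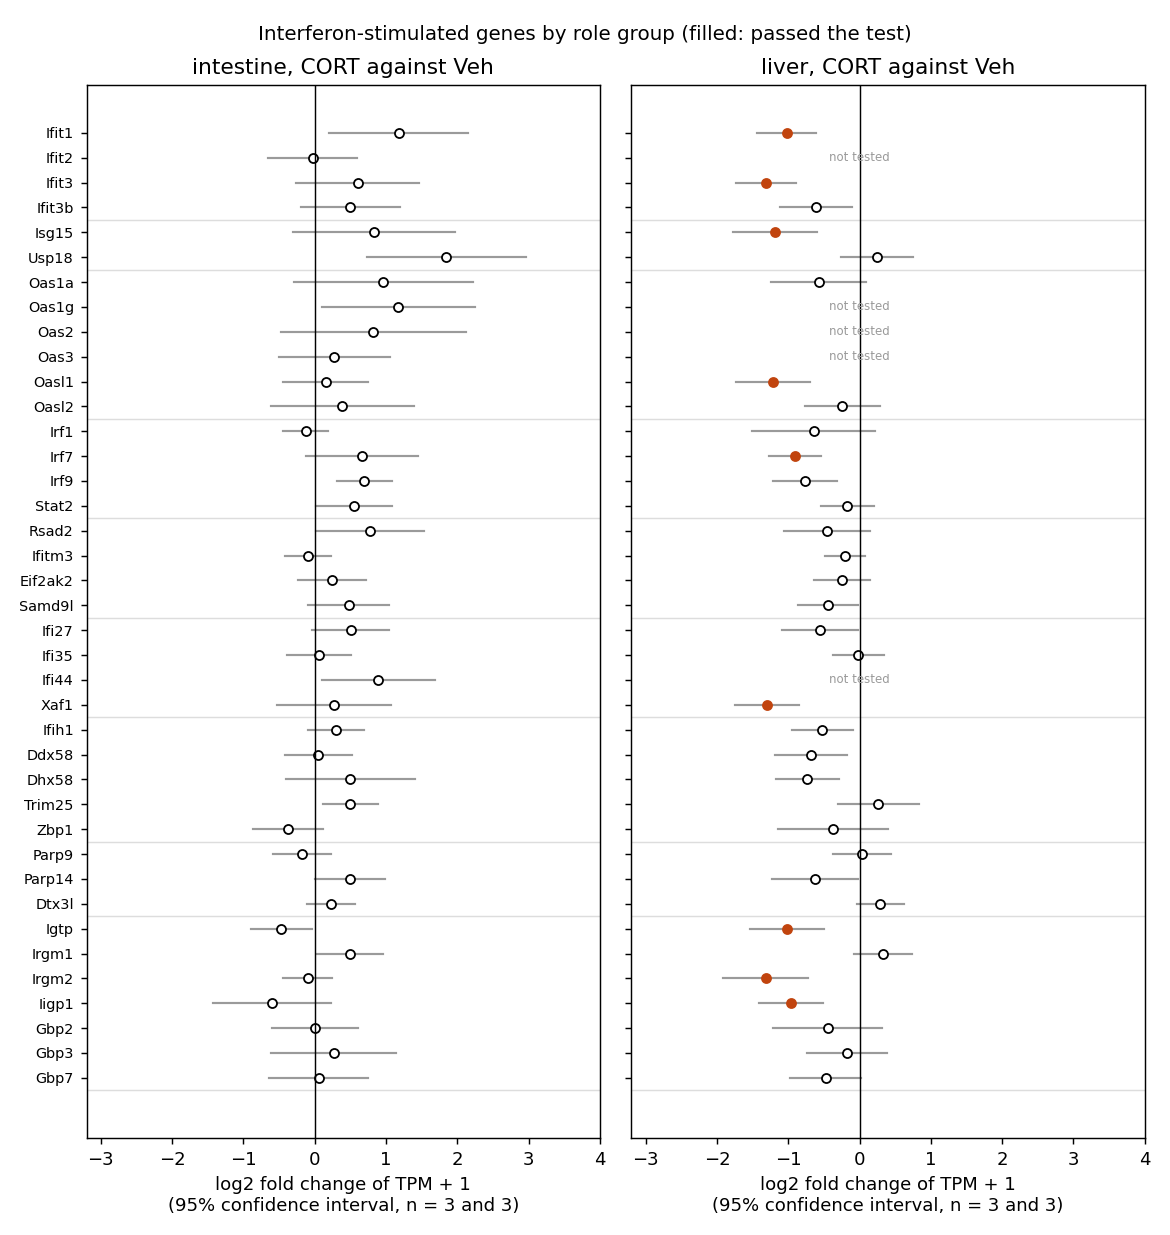
Log2 fold change of TPM + 1, CORT against Veh, for the 39 genes (rows, grouped by role) in intestine (left) and liver (right), with 95% confidence intervals from limma and 3 libraries per group. Filled points passed the test: 0 of 39 in intestine and 9 in liver, all 9 left of 0, and the 5 genes under 1 TPM in both liver groups have no point.

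Of the IFIT genes, Ifit3 had the largest fold change in the liver on the log2(TPM + 1) scale, while Ifit1 had the larger one with a pseudocount of 0.1 (-1.76, against -1.62 for Ifit3). It was at 6.03, 8.67 and 6.72 TPM in Veh1 to Veh3 and at 1.81, 2.67 and 2.30 TPM in CORT1 to CORT3. Even the highest CORT library was below the lowest Veh library. The log2 fold change was -1.32 (SE 0.18, limma adjusted p = 0.0100). Ifit1 was at 2.16, 2.53 and 2.04 TPM in the Veh livers and at 0.50, 0.70 and 0.58 TPM in the CORT livers. These groups were also apart, and all 3 CORT values were under 1 TPM, where the log scale compresses the change. Its log2 fold change was -1.02 (SE 0.18, limma adjusted p = 0.0219). Both genes carry a pair of ISRE cores in the stretches shown above. Ifit3b, which shares that stretch with Ifit3, had a log2 fold change of -0.61 and was not called (limma adjusted p = 0.129). Reads of Ifit3 and Ifit3b can be hard to assign to one copy, so their single values are uncertain. Ifit2 was at 0.29 to 0.66 TPM in the 6 livers.

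Isg15 and Usp18, the protease that removes ISG15 from proteins and also dampens signalling at the interferon receptor, had fold changes of opposite sign in the liver. Isg15 was at 17.6, 19.8 and 10.9 TPM in the Veh livers and at 4.78, 7.65 and 6.75 TPM in the CORT livers, with no overlap. Veh3 lay nearest to the CORT libraries. The log2 fold change was -1.19 (SE 0.25, limma adjusted p = 0.0388). Usp18 was at 5.58, 5.06 and 4.64 TPM in Veh and at 6.77, 4.32 and 8.12 TPM in CORT, so the groups overlapped. Its log2 fold change was 0.25 (95% interval -0.25 to 0.75).

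OAS proteins make oligoadenylates that activate RNase L, which degrades RNA. Oasl1, a relative without this activity that restrains translation of Irf7 mRNA, was the called member in the liver. It was at 6.85, 6.51 and 5.79 TPM in Veh and at 1.44, 3.28 and 2.07 TPM in CORT, a log2 fold change of -1.21 (SE 0.22, limma adjusted p = 0.0251). The Veh values lay close together and well above the CORT values. Oasl2 was at 1.27, 2.42 and 1.31 TPM in Veh and at 1.24, 1.38 and 1.04 TPM in CORT. These groups overlapped, and the log2 fold change of -0.24 had a 95% interval from -0.77 to 0.28. Oas1a was not called, and Oas1g, Oas2 and Oas3 were low in the liver, with no library above 1.58 TPM. Oas1a and Oas1g are near copies of each other, so reads can be split between them.

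Among the signalling proteins and transcription factors, Irf7, the main driver of interferon alpha genes, was called. It was at 17.1, 20.7 and 20.2 TPM in the Veh livers and at 8.19, 11.1 and 10.3 TPM in the CORT livers. The groups were far apart for their spread, with a log2 fold change of -0.91 (SE 0.15, limma adjusted p = 0.0199). Irf9, the DNA-binding subunit of ISGF3, was at 11.3, 10.6 and 9.99 TPM in Veh and at 5.99, 4.34 and 7.61 TPM in CORT. No CORT value reached a Veh value, but Irf9 did not pass the test (log2 fold change -0.76, SE 0.19, limma adjusted p = 0.0588). Stat2, its partner in ISGF3, had a log2 fold change of -0.17 and Irf1 one of -0.64, with overlapping groups for both.

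Among the other antiviral effectors and interferon-induced proteins, Xaf1, an antagonist of the apoptosis inhibitor XIAP, was called lower in the liver. It was at 8.56, 9.26 and 7.24 TPM in Veh and at 2.45, 2.26 and 3.82 TPM in CORT. The lowest Veh library was clearly above the highest CORT library, and the log2 fold change was -1.30 (SE 0.19, limma adjusted p = 0.0126). Rsad2 (viperin), an antiviral enzyme, was at 0.62, 1.54 and 0.97 TPM in Veh and at 0.24, 0.64 and 0.53 TPM in CORT. These groups overlapped narrowly (log2 fold change -0.46). The remaining 5 tested genes of these groups, Ifitm3, Eif2ak2, Samd9l, Ifi27 and Ifi35, had log2 fold changes from -0.56 to -0.02 and were not called.

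None of the 5 nucleic acid sensors and their ligase was called in the liver. The cytosolic RNA sensors Ddx58 (RIG-I), Ifih1 (MDA5) and Dhx58 (LGP2) had log2 fold changes of -0.68, -0.52 and -0.73, with every CORT library below every Veh library. Dhx58 was at 3.42, 5.16 and 3.48 TPM in Veh and at 2.01, 2.31 and 1.67 TPM in CORT (limma adjusted p = 0.0641). Zbp1, a sensor of Z-form nucleic acid, had a log2 fold change of -0.37 and Trim25, a ubiquitin ligase for RIG-I, one of 0.26, both with overlapping groups. Of the ADP-ribosylation genes, Parp14 was at 3.09, 5.41 and 3.02 TPM in Veh and at 1.37, 2.37 and 2.64 TPM in CORT. The highest CORT value came near the lowest Veh value, and the log2 fold change of -0.62 was not called (limma adjusted p = 0.183). Dtx3l and Parp9, which form a complex, had log2 fold changes of 0.29 and 0.03.

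Of the 7 interferon-inducible GTPases, which act on the vacuoles of intracellular pathogens and respond mainly to interferon gamma, 3 were called lower in the liver. Igtp was at 12.5, 17.2 and 11.97 TPM in Veh and at 4.56, 6.73 and 7.92 TPM in CORT, a log2 fold change of -1.02 (SE 0.22, limma adjusted p = 0.0406). Irgm2, whose ISRE stretch nearly equals that of Igtp, was at 11.02, 17.2 and 9.44 TPM in Veh and at 3.12, 4.93 and 5.09 TPM in CORT. Its log2 fold change was -1.31 (SE 0.25, limma adjusted p = 0.0302). In both genes Veh2 was the highest library and CORT1 the lowest. Iigp1, the most abundant GTPase of the group in the liver, was at 75.5, 90.5 and 81.9 TPM in Veh and at 39.4, 54.6 and 34.2 TPM in CORT (log2 fold change -0.96, SE 0.19, limma adjusted p = 0.0327). Irgm1, a regulator of the other GTPases, had a log2 fold change of 0.33 (95% interval -0.09 to 0.74). Gbp2, Gbp3 and Gbp7 had log2 fold changes from -0.47 to -0.18 and were not called. GTPases of these families are alike in sequence, which can move reads between copies.

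**Figure D2:**
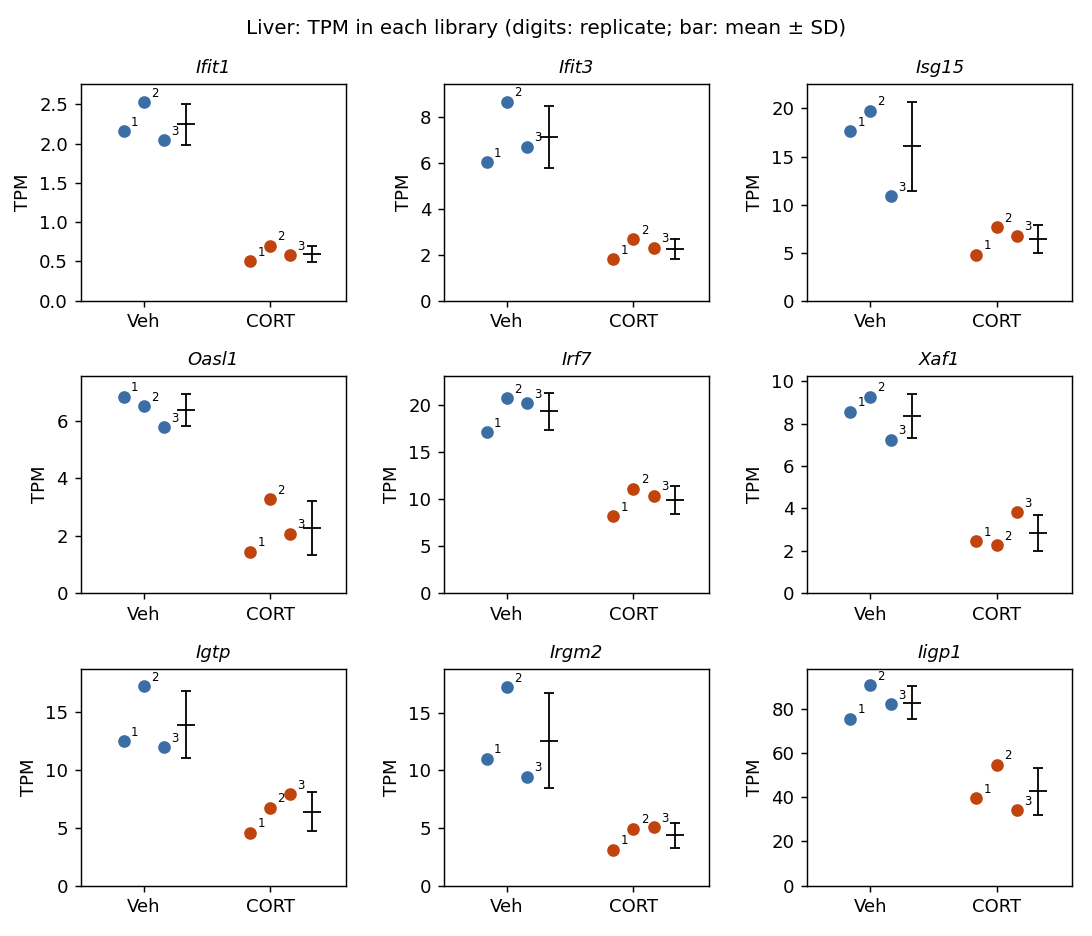
TPM of the 9 genes called in the liver, in each Veh (blue) and CORT (orange) library, with the replicate number beside each point and the mean ± SD of 3 libraries as a bar. Each panel has its own axis from 0, and in each panel all 3 CORT points lie below all 3 Veh points, as for Ifit3 at 1.81 to 2.67 against 6.03 to 8.67 TPM.

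The single livers were not alike. Of the 39 genes, 27 had their highest value of the 6 livers in Veh2, and 20 had their lowest in CORT1. The median deviation of the genes from their own mean, on the log2 scale, was 0.09, 0.51 and 0.15 in Veh1 to Veh3 and -0.35, -0.21 and -0.15 in CORT1 to CORT3. The calls depended on single libraries. Ifit3 kept its call whichever of the 6 libraries was left out, and without CORT1 it was the 1 member called. Without Veh1, 2 members were called (Ifit3 and Irf7), and without Veh3, 3 (Ifit3, Xaf1 and Isg15). Without CORT2, 5 were called (Ifit3, Irf7, Xaf1, Oasl1 and Iigp1), and without Veh2 another set of 5 (Ifit3, Irf7, Xaf1, Ifit1 and Irgm2). Without CORT3, 6 were called (Ifit3, Irf7, Xaf1, Ifit1, Igtp and Irf9). Over these fits the log2 fold changes of the 9 genes lay between -1.48 and -0.79.

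**Figure D3:**
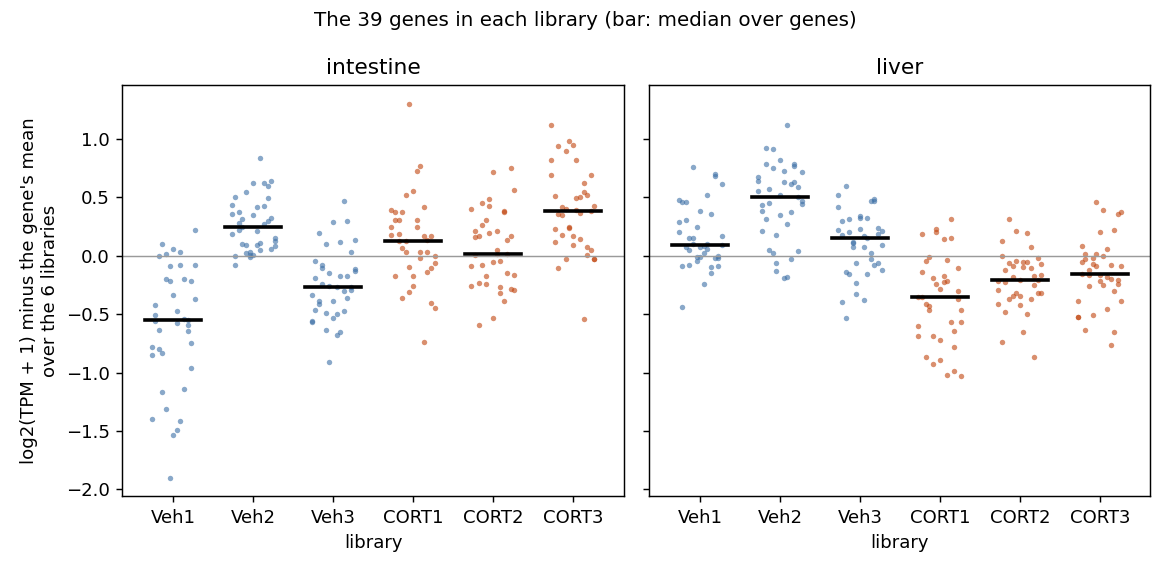
Deviation of log2(TPM + 1) from the gene's mean over the 6 libraries of its tissue, for the 39 genes (points) in each library of intestine (left) and liver (right), with the median over genes as a bar. In liver the medians are 0.09 to 0.51 in Veh and -0.35 to -0.15 in CORT, and in intestine they run from -0.55 in Veh1 to 0.25 in Veh2 and from 0.02 to 0.38 in CORT.

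Markers of other cell types were read beside these genes in the liver. The summed level of 7 B cell markers was 2.05 to 7.72 TPM in Veh and 0.16 to 0.67 TPM in CORT, and that of 11 T cell markers was 2.22 to 5.74 and 1.29 to 2.92 TPM. The 7 NK cell markers summed to 0.81 to 2.77 TPM in Veh and 0.28 to 1.83 TPM in CORT, too low to be tested. None of these 3 lists had a called gene, though only 2 of the 7 B cell and 1 of the 11 T cell markers were tested. Both tested B cell markers passed the filter only through the Veh group. They were lower in every CORT liver, with log2 fold changes of -1.23 and -0.96. Tested or not, 4 of the 7 B cell and 3 of the 11 T cell markers were lower in every CORT liver, against 11.6% of tested genes. Most of these markers were very low: 5 of the 7 and 8 of the 11 stayed under 1 TPM in all 6 livers. The 11.6% covers only genes that passed the filter, so the shares are not like for like. The 1 T cell marker that was tested, Cd28, passed the filter only through the CORT group. It was higher in every CORT liver (0.63 to 1.96 TPM) than in every Veh liver (0.01 to 0.07 TPM), with a log2 fold change of 0.96 (limma adjusted p = 0.0985). Veh2 had the highest sum in each list. The 7 endothelial markers summed to 23.9 to 47.8 TPM in Veh and 71.6 to 78.0 TPM in CORT, and 2 of 7 (Pecam1 and Stab2) were called higher. The 15 macrophage and Kupffer cell markers summed to 237 to 322 TPM in Veh and 202 to 579 TPM in CORT, and 1 (Cd163) was called higher. No marker of these 5 lists was at 0 in all 6 livers. The 7 plasmacytoid dendritic cell markers summed to 6.74 to 9.04 TPM in Veh and 8.48 to 36.4 TPM in CORT, with Ly6d the highest. Of these 7, 3 were tested, 0 were called and 1 was higher in every CORT liver. The part of these cells in the lower interferon-stimulated genes was not tested.

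In the intestine, 0 of the 39 genes were called in either direction, while 1.23% of the 13607 tested genes were called higher and 0.919% lower. All 39 averaged 1 TPM or more in both groups. Of these, 31 had a log2 fold change above 0, with a median of 0.39, against 6598 of 13607 and a median of -0.01 for all tested genes. At an unadjusted p under 0.05, 10 were higher in CORT (Ifit1, Usp18, Oas1g, Irf9, Stat2, Rsad2, Ifi44, Parp14, Trim25 and Irgm1) and 1 was lower (Igtp), against 8.72% and 10.5% of all tested genes. Every CORT library was higher than every Veh library for 6 genes (15.4%): Ifit1, Usp18, Irf9, Rsad2, Ifi44 and Trim25. That share was near the 12.2% of all tested genes. The reverse held for 0 of 39, against 14.3%.

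The spread among Veh intestines was wide. Of the 39 genes, 35 were highest in Veh2 among the 3 Veh libraries and 30 were lowest in Veh1. The ratio of the highest to the lowest Veh library had a median of 1.96 over the 39 genes and 1.31 over all tested genes, and it exceeded 2 for 19 of the 39. Among the CORT intestines the same ratio had a median of 1.55, against 1.43 for all tested genes, and 25 of the 39 were highest in CORT3. The summed level of the 39 genes was 1167, 1914 and 1334 TPM in Veh1 to Veh3 and 1848, 1482 and 2157 TPM in CORT1 to CORT3. Veh2 and Veh3 were also the libraries with acinar transcripts, and Veh1, with the fewest transcripts of the 39 genes, had few. With Veh2 and Veh3 left out, which leaves 1 Veh library whose spread is taken from the CORT libraries, the median log2 fold change was 0.72 and 0 genes were called. Left out alone, Veh1 and CORT3 each gave a median of 0.21, and Veh2 gave 0.62. Removing the acinar genes and rescaling left the median at 0.35, also with 0 called.

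Usp18 had the largest fold change of the 39 in the intestine on the log2(TPM + 1) scale. It was at 10.7, 43.9 and 22.3 TPM in Veh1 to Veh3 and at 107, 60.4 and 85.3 TPM in CORT1 to CORT3. The groups did not overlap, though Veh alone spanned more than a doubling. The log2 fold change was 1.85 (SE 0.47, limma adjusted p = 0.0997), so Usp18 did not pass the test. Isg15 was at 53.7, 197 and 95.7 TPM in Veh and at 194, 119 and 252 TPM in CORT, and Veh2 lay above 2 of the 3 CORT libraries. Its log2 fold change of 0.83 had a 95% interval from -0.30 to 1.97.

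The IFIT and OAS genes showed the same order of the Veh libraries. Ifit1 was at 10.8, 34.2 and 20.0 TPM in Veh and at 35.7, 39.7 and 66.2 TPM in CORT (log2 fold change 1.18, SE 0.41, limma adjusted p = 0.190). Veh2 came within reach of CORT1. Ifit3 was at 10.7, 23.8 and 14.6 TPM in Veh and at 22.3, 16.4 and 38.2 TPM in CORT, with overlap (log2 fold change 0.60). Oas1g was at 9.90, 40 and 18.1 TPM in Veh and at 49.8, 34.6 and 53.1 TPM in CORT (log2 fold change 1.17, limma adjusted p = 0.224). Here CORT2 was below Veh2. Oasl2 was at 45.8, 141 and 74.7 TPM in Veh and at 102, 73.6 and 146 TPM in CORT, groups that overlapped almost fully (log2 fold change 0.39, 95% interval -0.61 to 1.39). All 6 OAS genes had log2 fold changes above 0, from 0.15 for Oasl1 to 1.17.

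Of the transcription factors, Irf9 had the smallest adjusted p of the 39 in the intestine. It was at 19.8, 27.0 and 20.5 TPM in Veh and at 37.2, 32.1 and 41.1 TPM in CORT, with no overlap. The log2 fold change was 0.70 (SE 0.16, limma adjusted p = 0.0850). Irf7 was at 63.8, 141 and 74.0 TPM in Veh and at 145, 104 and 179 TPM in CORT, with Veh2 again among the CORT values (log2 fold change 0.66). Stat2 had a log2 fold change of 0.55 and Irf1 one of -0.13. Rsad2 was at 1.85, 5.89 and 4.96 TPM in Veh and at 7.31, 7.78 and 7.15 TPM in CORT. Ifi44 was at 0.91, 4.08 and 2.04 TPM in Veh and at 4.62, 4.45 and 5.13 TPM in CORT. For both, the CORT libraries lay close together just above Veh2, and neither was called (log2 fold changes 0.78 and 0.89, limma adjusted p = 0.246 and 0.215).

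**Figure D4:**
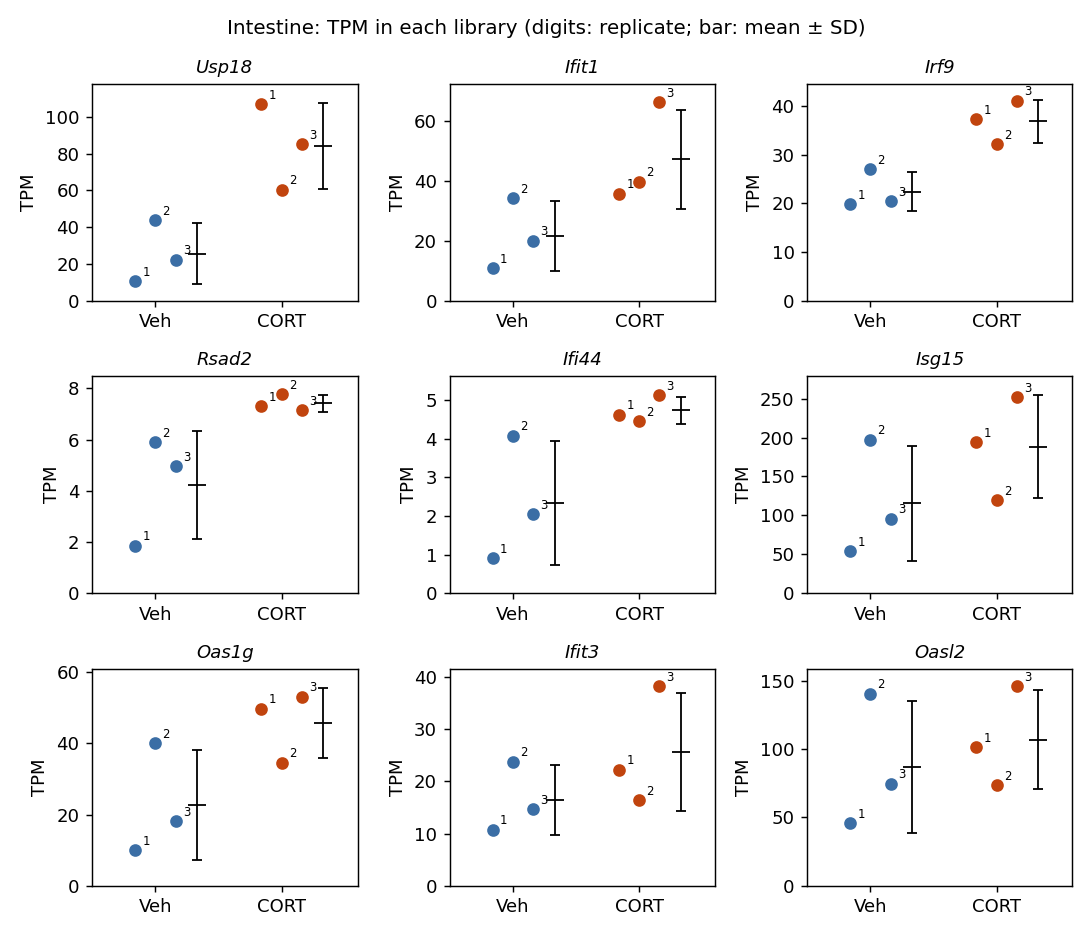
TPM of 9 interferon-stimulated genes in each Veh (blue) and CORT (orange) intestine library, with the replicate number beside each point and the mean ± SD of 3 libraries as a bar. Each axis starts at 0. Veh1 is the lowest point of each panel and Veh2 the highest Veh point, as for Usp18 at 10.7 and 43.9 TPM, and the groups overlap in the panels of Isg15, Oas1g, Ifit3 and Oasl2.

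The sensors, ADP-ribosylation genes and GTPases had smaller fold changes in the intestine. Dhx58 was at 4.59, 12.6 and 6.98 TPM in Veh and at 10.4, 7.42 and 16.8 TPM in CORT, with overlap (log2 fold change 0.50). Parp14 was at 17.6, 21.8 and 12.8 TPM in Veh and at 21.0, 25.5 and 27.3 TPM in CORT, where only CORT1 lay under Veh2 (log2 fold change 0.50, limma adjusted p = 0.254). The 7 GTPases split, with log2 fold changes from -0.60 for Iigp1 to 0.50 for Irgm1. Iigp1 was at 2.31, 4.85 and 4.26 TPM in Veh and at 1.28, 3.95 and 1.61 TPM in CORT, and CORT2 lay within Veh. Igtp was at 65.6, 80.3 and 77.3 TPM in Veh and at 52.4, 43.3 and 67.1 TPM in CORT (log2 fold change -0.47, limma adjusted p = 0.228), and CORT3 was above Veh1. Irgm2 was at 21.5, 24.6 and 24.7 TPM in Veh and at 22.4, 18.7 and 25.2 TPM in CORT, with no separation (log2 fold change -0.10, 95% interval -0.44 to 0.25). Oasl1 and Xaf1, called in the liver, had log2 fold changes of 0.15 and 0.27 here. Oasl1 was at 49.9, 104 and 65.2 TPM in Veh and at 80.7, 74.6 and 77.7 TPM in CORT. Xaf1 was at 26.2, 63.3 and 32.1 TPM in Veh and at 42.4, 37.4 and 60.0 TPM in CORT. For both genes the highest library was Veh2.

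Other cell types in the intestine were read from the same marker lists. Enterocyte markers summed to 27086 to 40547 TPM in Veh and 44020 to 52885 TPM in CORT, and 0 of 10 were called. Of 12 tested macrophage markers, 2 (Clec4f and Cd163) were called higher in CORT, while the list's sum was 242 to 415 TPM in Veh and 282 to 424 TPM in CORT. T cell, B cell, NK cell and plasmacytoid dendritic cell markers had 0 called genes. Of these lists 9 of 11, 4 of 7, 2 of 7 and 5 of 7 markers were tested. Their part in the values of the 39 genes was not tested.

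Whether the response to CORT differed between the tissues was tested as a treatment by tissue term in limma over all 12 libraries and 14806 genes. The term was called for 3 of the 39 genes (7.69%), each with a more positive fold change in the intestine, against 1.3% of all tested genes in that direction. For Irf9 the log2 fold change in the intestine minus that in the liver was 1.46 (SE 0.26, limma adjusted p = 0.0119). For Ifit1 it was 2.20 (SE 0.47, limma adjusted p = 0.0309) and for Ifit3 it was 1.92 (SE 0.44, limma adjusted p = 0.0412). In Ifit1 and Irf9 the groups were apart in opposite directions, with every CORT library above every Veh library in the intestine and below in the liver. The share of all genes with both orders was not computed. Taken singly, the intestine order held for 12.2% of tested intestine genes and the liver order for 11.6% of tested liver genes. Ifit1 was at 0.50 to 0.70 TPM in the CORT livers and passed the liver filter only through the Veh group. The difference was above 0 for 36 of the 39 genes and had an unadjusted p under 0.05 for 21. The 36 include Ifit2, Oas1g, Oas2, Oas3 and Ifi44, which were under 1 TPM in both liver groups. Of these, Oas1g and Ifi44 are among the 21. The log2(TPM + 1) scale understates any liver change of such low genes. Of all tested genes, 42.4% had a difference above 0 and 6.55% had one above 0 with an unadjusted p under 0.05. Isg15 had a difference of 2.02 but a wide interval (0.70 to 3.34), and that of Usp18 had an interval of 0.35 to 2.85. Among the 34 genes tested in both tissues, 23 had a fold change above 0 in the intestine and below 0 in the liver. Another 6 were below 0 in both, 4 above 0 in both and 1 the reverse. The 23 include Ifit1, Ifit3b, Rsad2, Gbp2, Gbp7 and Samd9l, which passed the liver filter only through the Veh group. These could only be below 0 in the liver. The share of all genes with this order of signs was not computed.

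The joint fit takes the 12 libraries as independent. With the replicate number as a block within each tissue, 0 members were called, and the adjusted p of limma was 0.0656 for Irf9, 0.0587 for Ifit1 and 0.109 for Ifit3. With libraries of one treatment and number in both tissues taken as one mouse, an alternative chosen after seeing the data, it was 0.0315 for Irf9, 0.0530 for Ifit1 and 0.0539 for Ifit3, and 2 members were called (Irf9 and Ifi27). Irf9 kept its call whichever of the 12 libraries was left out, with differences from 1.28 to 1.63. Ifit1 kept it in 3 cases (without intestine CORT1, Veh1 or Veh2), with differences from 1.80 to 2.59. Ifit3 kept it in 2 (without intestine CORT2 or Veh2), with differences from 1.596 to 2.21. Leaving out intestine Veh2 raised the number of members called to 11. It fell to 1 without intestine CORT3 or Veh3, or without liver CORT1, CORT3, Veh1 or Veh2, and was 2 without intestine Veh1, liver CORT2 or liver Veh3.

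**Figure D5:**
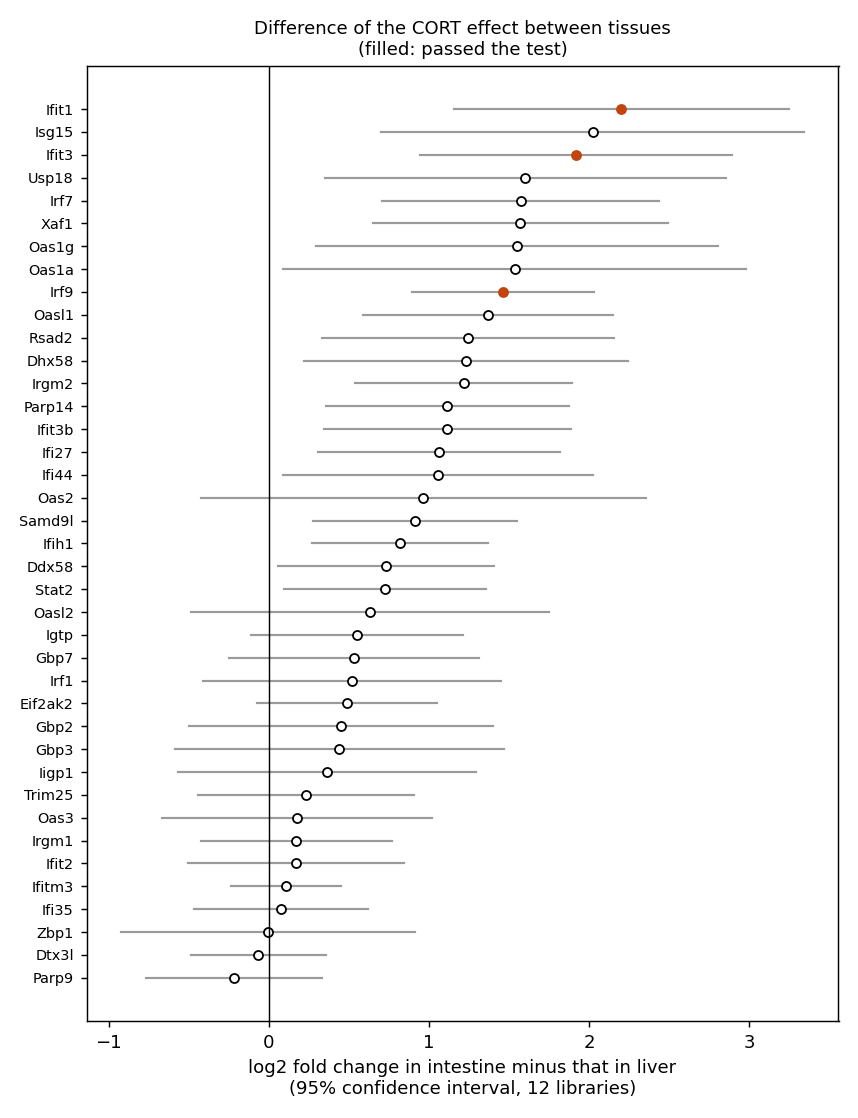
Log2 fold change (CORT against Veh) in intestine minus that in liver for the 39 genes, ordered by size, with 95% confidence intervals from the limma treatment by tissue term over 12 libraries. Filled points passed the test (Ifit1 at 2.20, Ifit3 at 1.92 and Irf9 at 1.46), and 36 of the 39 points lie right of 0. These 36 include the 5 genes under 1 TPM in both liver groups.

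Further genes of the pathway were read from lists written with earlier results of these data known. The interferons themselves were barely seen. Of 18 interferon genes, 15 were listed at 0 in all intestine libraries and 16 in all liver libraries. The highest single values were 0.34 TPM (Ifng, interferon gamma) in the intestine and 0.07 TPM (Ifnz) in the liver, and none was tested.

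None of the 16 receptor and JAK-STAT genes was called in either tissue. Ifnar1 and Ifnar2 form the type I receptor. Ifnar1 had log2 fold changes of 0.04 in intestine and 0.0036 in liver, and Ifnar2 had 0.30 and -0.14. In the intestine Ifnar2 was at 20.4, 20.1 and 19.8 TPM in Veh and at 25.0, 23.3 and 26.9 TPM in CORT, apart but not called (limma adjusted p = 0.208). Ifngr1, of the interferon gamma receptor, had log2 fold changes of 0.22 and 0.05. Ifnlr1, of the type III receptor, was at 4.90 to 7.29 TPM in the intestines, with overlapping groups, and at most 0.09 TPM in the livers.

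A list of 66 other interferon-stimulated genes was treated alike. In the intestine 57 were tested, 0 were called, and the median log2 fold change was -0.02, beside 0.39 for the 39 genes. Mx1, an antiviral GTPase, was at 0.83, 1.66 and 0.89 TPM in Veh intestine and at 2.42, 2.07 and 2.59 TPM in CORT intestine, apart but not called (limma adjusted p = 0.153). In the liver 43 were tested, with a median of -0.31. There 4 were called lower: Mx2, the chaperone Rtp4, Nmi and Gbp10. Rtp4 was at 10.3, 11.04 and 8 TPM in Veh and at 3.69, 2.75 and 2.97 TPM in CORT (log2 fold change -1.38, limma adjusted p = 0.00693). The 2 called higher were Ifitm2 and Tor3a. Ifitm2 was at 344, 402 and 317 TPM in Veh livers and at 623, 649 and 869.7 TPM in CORT livers (log2 fold change 1.00, limma adjusted p = 0.0224), while its relative Ifitm3 was at 834.6 to 912 and 719 to 807 TPM. These related, neighbouring genes can share reads, so their single values are uncertain. Of the 6 calls 1 was left without CORT1, CORT2, Veh1 or Veh3, and 4 without CORT3 or Veh2.

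In the sensing pathway upstream of interferon (18 genes), 1 gene was called in the intestine. This was Ikbke, a kinase that activates IRF3 and IRF7, lower in CORT (log2 fold change -0.98, limma adjusted p = 0.0413). Ikbke was not called in the liver, where its log2 fold change was -1.05 (limma adjusted p = 0.0516). With a pseudocount of 0.1 it was called there (log2 fold change -1.25, limma adjusted p = 0.0473). In the liver Ticam1, the adaptor of Toll-like receptor 3, was called higher (log2 fold change 0.61, limma adjusted p = 0.0289), and Irf5, a transcription factor of myeloid cells, was called lower (log2 fold change -1.80, limma adjusted p = 0.0197). Among 12 genes of MHC class I and the immunoproteasome, the peptide transporter subunit Tap2 and the immunoproteasome subunits Psmb9 and Psmb10 were called lower in the intestine. Psmb9 was at 119, 115 and 123 TPM in Veh intestine and at 64.6, 43.1 and 44.8 TPM in CORT intestine (log2 fold change -1.23, limma adjusted p = 0.0253). The median of this list in the intestine was -0.60, against 0.39 for the 39 genes. In the liver 1 of the 12, Psmb9, was called lower (log2 fold change -0.84, limma adjusted p = 0.0330). The calls of these lists each failed in at least 5 of the 6 fits that left out 1 library. Intestine Ikbke and Tap2 were called in 0 of them, and Psmb10 and intestine Psmb9 without CORT1. Ticam1 was called without Veh2, Irf5 without CORT3 and liver Psmb9 without CORT2.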

How the data were processed

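The authors made TruSeq libraries from total RNA and trimmed the reads (SeqPrep, Sickle). HISAT2 alignment (build GRCm39 per the submitters' processing notes), StringTie assembly and RSEM quantification followed, as the authors describe. Versions and the annotation release are not given in the sources used here. The deposited tables hold TPM for each gene in each single library. The depth behind a TPM value is unknown, so no counting interval or detection limit is given and precision rests on 3 libraries per group. limma 3.58.1 (R 4.3.3, eBayes with a trend) was fitted to log2(TPM + 1) within a tissue, without covariates. A joint fit gave the treatment by tissue term. The fits were tested on simulated data. The gene members and all gene lists were chosen with earlier results of these data known. Genes given per library are the 3 markers, each called member, the member with the largest fold change in each role group and tissue, and fixed receptor genes. Other genes given per library were chosen after their values were seen. Promoter sequences come from RefSeq GRCm38.p6, which is not the build of the files. Alternatives were a pseudocount of 0.1, no filter, median-ratio scaling, the replicate block, unadjusted p-values, no limit on fold change, leaving out libraries and removing acinar genes. Leaving out intestine Veh2 and Veh3 together, and a block that joins equal numbers across tissues, were added after seeing the data. One further gene of the pathway is not reported here.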

Additional observations from a re-analysis of the deposited data

Results flagged for a closer look

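In 3 genes the response to CORT differed between intestine and liver by the treatment by tissue term of limma, each more positive in the intestine. The difference of log2 fold changes was 2.20 for Ifit1, 1.92 for Ifit3 and 1.46 for Irf9. Of 12 fits that each left out 1 library, Irf9 kept its call in 12, Ifit1 in 3 and Ifit3 in 2. With the replicate block none of these genes was called. Single libraries were not tested for outliers, since every group holds 3.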

How the results depend on the processing

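In the liver 9 members were called. This count was 2 without a filter on low values, 13 with median-ratio scaling, the 9 among them, 14 with unadjusted p-values and the limit of 1.5-fold kept, and 1 to 6 when 1 library was left out. The liver median of -0.54 was -0.79 with a pseudocount of 0.1, -0.46 without the filter and -0.65 to -0.38 with 1 library left out. Of the other interferon-stimulated genes in the liver, 6 were called, 9 with median-ratio scaling, 2 without the filter and 1 to 4 with 1 library left out. In the intestine 0 members were called except with unadjusted p-values, which gave 6 past the same 1.5-fold limit, and the median of 0.39 was 0.72 without Veh2 and Veh3. The treatment by tissue term was called for 3 members, for 1 without the filter, for 7 with median-ratio scaling and for 1 to 11 with 1 library left out. With the replicate block the counts were 2 for liver members, 2 for the other liver genes and 0 for the term. Within a tissue, same-numbered CORT and Veh libraries correlated between -0.12 and 0.073 in their deviations. Different-numbered ones correlated between -0.14 and 0.127. With 3 libraries per group these values can neither show nor exclude a pairing by number. Across tissues, libraries of one treatment correlated between -0.133 and 0.102 with the same number and between -0.138 and 0.215 with different numbers. A block of such cross-tissue pairs gave 2 for the term. The cause of these changes was not tested, beyond more genes or fewer libraries in the fit.

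Among the named genes, 580 values under an alternative kept their direction and side of the threshold, 163 lost a call, 7 gained one and 18 changed sign; no gene that changed sign was called in that tissue. With 1 library left out, log2 fold changes ran from -0.19 to 0.012 for Irgm2, -0.085 to 0.44 for Oasl1, -0.099 to 0.38 for Tor3a, -0.036 to 0.11 for Ifnar1, -0.23 to 0.059 for Ticam1 and -0.31 to 0.015 for Irf5 in the intestine, and from -0.14 to 0.18 for Ifnar1 and -0.11 to 0.24 for Ifngr1 in the liver. Without both Veh2 and Veh3 the intestine values were 0.027 for Irgm2, -0.086 for Ifnar1, -0.011 for Ifnlr1, 0.066 for Ticam1 and 0.22 for Irf5. With median-ratio scaling the liver values were -0.079 for Ifnar1 and -0.031 for Ifngr1.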
